A study of Mus musculus with 9 samples.

Results

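NIH/3T3 fibroblasts that received alpha-arbutin together with UVA were compared with NIH/3T3 fibroblasts that received UVA alone, 3 libraries a side, which are 6 of the 9 RNA sequencing libraries of the study. The groups were taken from the treatment labels, and the comparison ran over all genes with enough counts, 14151 of the 56691 in the deposited table. NIH/3T3 is an established mouse embryonic fibroblast line, labelled wild type. One group, called UVA-only here, received UVA at 10 J/cm2. The other, called co-treated here, received the same 10 J/cm2 and alpha-arbutin. The remaining 3 libraries come from control cells with no treatment named, and they are used here to give the level in unirradiated cells and to help estimate the spread. All 3 groups are one line grown in culture. The sources used here give neither the dose of alpha-arbutin, its order relative to the irradiation nor the time of harvest. They do not say whether the libraries of a group are separate cultures, so the p-values measure the spread between these libraries, which may be technical. No library of cells with alpha-arbutin and no UVA is among those analysed here. The stated question is whether the compound protects against photodamage, above all through DNA repair and collagen synthesis.

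Alpha-arbutin is hydroquinone joined to glucose, used in cosmetics to lighten skin because it inhibits tyrosinase. UVA passes into the dermis, where it is absorbed by cellular chromophores and gives rise to reactive oxygen species. Cells answer oxidants and reactive quinones through the transcription factor NRF2, which the adaptor KEAP1 holds low by ubiquitination and which, once released, drives genes for glutathione synthesis, thioredoxin recycling, haem breakdown, quinone reduction and NADPH supply. Binding takes place at antioxidant response elements. Slc7a11 is also a target of ATF4, the transcription factor of the amino acid stress response, which binds amino acid response elements.

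In co-treated cells 4 genes were higher and 1 was lower than in UVA-only cells at a Benjamini-Hochberg adjusted p below 0.05 (edgeR's quasi-likelihood test over all tested genes), which is 0.0353% of the genes tested (0.0283% higher and 0.00707% lower). The 4 higher genes are all in lists grouped here as oxidant defence, which were drawn up with earlier results of these data known. They are Slc7a11, the cystine importer that feeds glutathione synthesis, Txnrd1, the cytosolic thioredoxin reductase, Hmox1, the inducible haem oxygenase, and Slc48a1, a haem transporter of endosomes and lysosomes. The lower gene is Rn7sk, the small nuclear RNA 7SK, which holds the transcription elongation factor P-TEFb inactive. For comparison, UVA-only and control cells differed in 4142 genes, 29.3% of those tested, by the same test. Levels below are counts per 1e6 counts of the library, scaled by TMM (CPM). They are shares of a library's counts, and in bulk RNA fewer cells expressing a gene and less RNA per cell cannot be told apart.

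The promoters of 2 of the 5 genes, Slc7a11 and Txnrd1, are in the RefSeq promoter table (GRCm38.p6, 250 bases before to 50 after a start site), and they are shown because these genes had the smallest p of the comparison and are known targets of the factors named above. The core of the amino acid response element, TGATGNAA, was searched on both strands and is found in 3.97% of 32851 windows of this length. The core of the antioxidant response element, TGACNNNGC, is found in 12.4% of them. The Slc7a11 window (chr3:50443564-50443863, minus strand) holds TGATGNAA on each strand, in capitals, beginning 66 and 47 bases before the start site, and no TGACNNNGC. Of the 3 annotated Txnrd1 starts, the second (chr10:82858956-82859255, plus strand) holds TGACNNNGC once, on the reverse strand, beginning 92 bases before the start site and in capitals, and the others hold none. The shares are per window, so a gene with 3 windows has more room for a match. TGATGNAA is in none of the Txnrd1 windows. The AP-1 site TGAGTCA (5.20% of windows) was also searched and is in no window of either gene. A match is only a run of letters in this window.
Slc7a11 start 1: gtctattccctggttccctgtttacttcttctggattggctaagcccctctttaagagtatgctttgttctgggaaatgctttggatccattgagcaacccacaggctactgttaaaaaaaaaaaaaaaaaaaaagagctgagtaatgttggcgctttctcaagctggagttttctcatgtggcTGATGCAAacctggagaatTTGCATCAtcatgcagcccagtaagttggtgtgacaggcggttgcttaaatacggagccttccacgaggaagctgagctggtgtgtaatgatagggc
Txnrd1 start 2: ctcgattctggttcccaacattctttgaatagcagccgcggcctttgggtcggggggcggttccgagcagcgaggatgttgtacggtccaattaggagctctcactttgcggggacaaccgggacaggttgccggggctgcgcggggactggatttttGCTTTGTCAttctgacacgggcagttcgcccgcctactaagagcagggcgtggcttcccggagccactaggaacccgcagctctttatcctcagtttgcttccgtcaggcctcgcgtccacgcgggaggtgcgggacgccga

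Slc7a11 (ENSMUSG00000027737, chromosome 3, 49846975 to 50398063 on mm39, minus strand) had 44.5, 44.7 and 37.9 CPM in the UVA-only libraries and 71.2, 59.5 and 55.3 CPM in the co-treated libraries. Every co-treated library lay above every UVA-only library, and the co-treated libraries spread more widely (62.0 ± 8.24 against 42.4 ± 3.85, SD, n = 3). The log2 fold change was 0.55 ± 0.08 (SE; 95% interval 0.39 to 0.71), a 1.46-fold difference with an adjusted p of 0.00102. Control libraries had 60.8, 57.7 and 60.7 CPM, inside the range of the co-treated libraries. UVA-only cells were lower than control cells (log2 fold change -0.50 ± 0.08, adjusted p = 8.04e-06), while co-treated and control cells differed by 0.05 ± 0.07 (adjusted p = 0.667). These comparisons share the UVA-only or the co-treated libraries and are given side by side for that reason.

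Slc48a1 (ENSMUSG00000081534, chromosome 15, 97676401 to 97690573, plus strand) showed the same order of the groups. It had 133, 137 and 146 CPM in UVA-only libraries and 163, 169 and 169 CPM in co-treated libraries, with no overlap. The log2 fold change was 0.27 ± 0.04 (95% interval 0.18 to 0.36, adjusted p = 0.00684). Control libraries had 166, 160 and 162 CPM, and UVA-only minus control was -0.23 ± 0.04 (log2, adjusted p = 0.000217). Its locus overlaps Hdac7 on the opposite strand, which differed by 0.02 ± 0.05 between co-treated and UVA-only cells, and without knowledge of the strand setting the reads of the overlap cannot be assigned.

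Hmox1 (ENSMUSG00000005413, chromosome 8, 75820249 to 75827217, plus strand) had 19.98, 22.5 and 20.3 CPM in UVA-only libraries and 28.4, 28.3 and 29.6 CPM in co-treated libraries. The co-treated libraries lay close together and above all others, control libraries included (24.98, 22.4 and 26.4 CPM). The log2 fold change was 0.46 ± 0.08 (95% interval 0.29 to 0.63, adjusted p = 0.0153), a 1.38-fold difference. Against control, UVA-only cells stood at -0.24 ± 0.08 on the log2 scale (adjusted p = 0.0306) and co-treated cells at 0.22 ± 0.08 (adjusted p = 0.0404).

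Txnrd1 (ENSMUSG00000020250, chromosome 10, 82669785 to 82733546, plus strand) stood in another order, with control lowest and co-treated highest. It had 458, 430 and 435 CPM in control libraries, 472, 499 and 501 CPM in UVA-only libraries and 585, 587 and 575 CPM in co-treated libraries, with no overlap between any of the groups. The co-treated against UVA-only log2 fold change was 0.25 ± 0.04 (95% interval 0.17 to 0.32, adjusted p = 0.00327). UVA-only cells exceeded control cells by 0.15 ± 0.04 (adjusted p = 0.00266) and co-treated cells exceeded control cells by 0.40 ± 0.04 (adjusted p = 2.67e-09). The small gene Eid3 lies within its locus on the same strand and had 2.09 CPM in UVA-only cells.

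Rn7sk (ENSMUSG00002076161, chromosome 9, 78082585 to 78082915, minus strand) had 8.47, 7.72 and 8.20 CPM in UVA-only libraries and 4.45, 4.29 and 4.09 CPM in co-treated libraries, from 153, 125 and 164 counts against 73, 74 and 74. Both groups were tight and did not overlap. The log2 fold change was -0.93 ± 0.16 (95% interval -1.25 to -0.61, adjusted p = 0.00684), so co-treated libraries held 0.525 times the UVA-only level. Control libraries lay between them, at 7.44, 5.11 and 6.56 CPM. The 7SK gene has many near-identical copies in mammalian genomes, so its count depends on how reads with several positions were treated, a step the sources used here do not describe.

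The number of calls depended on single libraries. Leaving out UVA-only replicate 3 raised it to 14 higher and 8 lower, the 5 genes above among them. Leaving out co-treated replicate 2 left only Slc7a11, and leaving out co-treated replicate 3 left Slc7a11 and Txnrd1. Slc48a1 and Hmox1 also missed the threshold without UVA-only replicate 1. The fold changes themselves moved little when one library was left out or another method was used, and over all 15 alternatives they ran from 0.43 to 0.63 for Slc7a11, from 0.24 to 0.31 for Slc48a1, from 0.43 to 0.51 for Hmox1, from 0.22 to 0.26 for Txnrd1 and from -0.96 to -0.87 for Rn7sk. Limma on log2(FPKM + 1) or log2(FPKM + 0.1) called no gene in either direction, with 935 and 941 genes at an unadjusted p below 0.05, and with a pseudocount of 1 it gave Slc7a11 an adjusted p of 0.444 and the other 4 genes 0.151. With no filter on low counts there were 20 higher and 9 lower calls, the 5 genes among them. That edgeR fit tested 29538 genes and gave small adjusted p to genes whose groups overlap (3.52e-32 for Rn18s-rs5 and 2.26e-09 for Lars2). The reason was not tested, and its calls below are given with this limit.

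**Figure D1:**
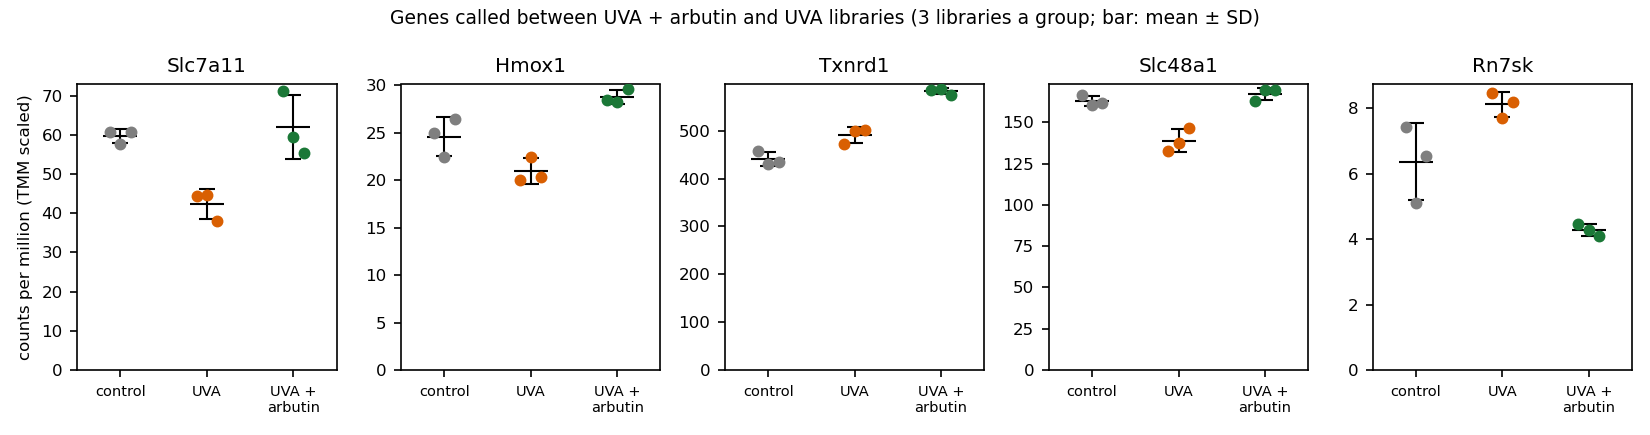
Level of the 5 genes called between co-treated (UVA + arbutin) and UVA-only libraries, in TMM-scaled CPM on axes that start at 0. Each point is 1 library and the bars give the mean and SD of 3 libraries. Slc7a11 had 44.5, 44.7 and 37.9 CPM in UVA-only libraries against 71.2, 59.5 and 55.3 CPM in co-treated libraries, and Rn7sk is the only one of the 5 with the co-treated libraries lowest.

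TMM scaling centres the fold changes, so their median over all tested genes (6.03e-05) is set by the scaling. For 10596 of 14151 genes the whole 95% interval lay within 0.58 of 0 on the log2 scale, that is, within a 1.5-fold difference either way. At an unadjusted p below 0.05 there were 957 genes (6.76%), of which 515 genes were higher (3.64% of those tested) and 442 lower (3.12%). Groups without overlap were found for 771 genes with co-treated libraries higher (5.45%) and for 751 with co-treated libraries lower (5.31%). Of the 14151 tested genes, 7079 were above 0 and 7072 below. These shares and counts are the background for the counts of list members below. Genes of a list can vary together, so such counts are not independent agreements. The biological coefficient of variation between libraries of a group was 4.71%.

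**Figure D2:**
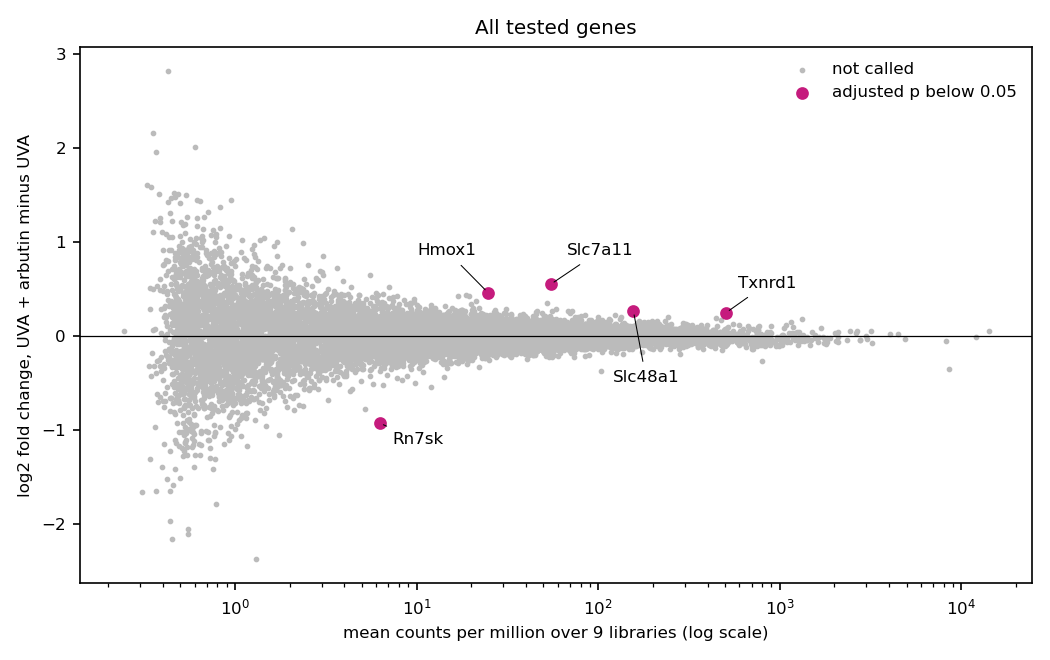
Log2 fold change of each of 14151 tested genes between co-treated and UVA-only libraries against its mean level over 9 libraries in CPM, on a log axis. Points are genes and the 5 called genes are in pink. Hmox1, Slc7a11, Slc48a1 and Txnrd1 lie on the upper edge of the cloud at their level, and large fold changes of genes that were not called are at levels near 1 CPM.

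The other genes of the oxidant defence are described by role. None of them was called in the fit described, and their values are given without a claim of change. Nqo1, Srxn1, Gsta4, Gclc, Aldh1l2 and Fth1 were called higher when no filter on low counts was applied (adjusted p from 0.000185 for Nqo1 to 0.0486 for Fth1). Without UVA-only replicate 3, Nqo1, Srxn1, Gclc, Gclm, Fth1 and Ahr were called higher. Gsta4 was called without UVA-only replicate 2 and Aldh1l2 without UVA-only replicate 1. In cystine import and glutathione synthesis, 1 of 11 tested genes, Slc7a11, was called. At an unadjusted p below 0.05, 4 were above 0 (3.64% of all tested genes) and none was below (3.12%). Besides Slc7a11 these were both subunits of glutamate-cysteine ligase, the rate-limiting enzyme of glutathione synthesis, and Chac1, which degrades glutathione. The catalytic subunit gene Gclc had 70.8, 64.0 and 75.4 CPM in UVA-only libraries and 84.9, 83.0 and 82.5 CPM in co-treated libraries. Its groups did not overlap, with a log2 fold change of 0.25 ± 0.06 (adjusted p = 0.186). The modifier subunit gene Gclm had 77.1, 79.9 and 90.2 CPM against 104, 88.1 and 94.5 CPM, overlapping groups, at 0.21 ± 0.06 (adjusted p = 0.464). Slc3a2, which encodes the heavy chain that pairs with the Slc7a11 product in the transporter, differed by 0.09 ± 0.05. Gss, glutathione synthetase, differed by -0.03 ± 0.08 and Gsr, glutathione reductase, by 0.05 ± 0.05. The list's median was 0.05.

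In the thioredoxin and peroxiredoxin system, 1 of 14 tested genes, Txnrd1, was called. Srxn1, sulfiredoxin, which restores overoxidised peroxiredoxins, had 121, 108 and 129 CPM in UVA-only libraries and 137, 138 and 143 CPM in co-treated libraries. These groups did not overlap (log2 fold change 0.22 ± 0.05, adjusted p = 0.176). The peroxiredoxins themselves lay near or below 0, with Prdx1 at -0.04 ± 0.04 and Prdx2 at -0.11 ± 0.04 (adjusted p = 0.666). Txnip, the inhibitor of thioredoxin, was at -0.23 ± 0.13 with wide, overlapping groups. Of the 14 genes 10 were below 0, and the list's median was -0.04.

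Of 17 genes of haem and iron handling, Hmox1 and Slc48a1 were called. The ferritin genes, whose products store iron such as that freed from haem, were next by p. Fth1, the heavy chain, had 1096, 1165 and 1281 CPM in UVA-only libraries and 1223, 1319 and 1380 CPM in co-treated libraries, with overlap (log2 fold change 0.15 ± 0.05, adjusted p = 0.626). Ftl1, the light chain, was at 0.11 ± 0.04 (adjusted p = 0.627) without overlap. Tfrc, the transferrin receptor for iron uptake, was at -0.10 ± 0.04 (adjusted p = 0.661), with co-treated libraries lowest and no overlap. Slc40a1, the iron exporter ferroportin, was near the limit of detection, at 0.72, 0.618 and 0.80 CPM against 0.244, 0.348 and 0.608 CPM. The list's median was 0.00.

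Of 23 tested genes for quinone reductases, glutathione transferases and drug export, none was called, 6 were above 0 at an unadjusted p below 0.05 and none below. The shares over all tested genes were 3.64% above 0 and 3.12% below. In these 6, Nqo1, Gsta4, Abcc1, Ptgr1, Gstm1 and Mgst1, every co-treated library lay above every UVA-only library, as in 5.45% of all tested genes. The 6 were picked by p from the same values, so this separation adds no support. Nqo1, the classical NRF2 target that reduces quinones by a pair of electrons at once, had 48.2, 43.7 and 58.9 CPM in UVA-only libraries and 63.8, 62.5 and 67.1 CPM in co-treated libraries. Its log2 fold change was 0.35 ± 0.08 (95% interval 0.20 to 0.51, adjusted p = 0.123). Nqo1 was called with all libraries when no filter on low counts was applied (adjusted p = 0.000185), and without UVA-only replicate 3 (adjusted p = 0.000832). Gsta4, which conjugates the lipid peroxidation product 4-hydroxynonenal, was at 0.26 ± 0.06 (adjusted p = 0.141). Abcc1, an exporter of glutathione conjugates, was at 0.16 ± 0.04 (adjusted p = 0.372). Ptgr1, Gstm1 and Mgst1 lay between 0.17 and 0.21 with adjusted p near 0.63. Glutathione transferases are a family of similar sequences, so their counts can depend on how shared reads were assigned. The list's median was 0.08, and 14 of 23 genes were above 0.

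Among 13 tested genes of NADPH supply, none was called. At an unadjusted p below 0.05, 4 were above 0, against 3.64% of all tested genes. Aldh1l2, a mitochondrial folate enzyme that is also an ATF4 target, was at 0.21 ± 0.05 (adjusted p = 0.264). The pentose phosphate pathway genes Pgd, G6pdx and Taldo1 were at 0.12 ± 0.04, 0.10 ± 0.05 and 0.11 ± 0.05. G6pdx overlaps Ikbkg on the opposite strand, which was at 0.11 ± 0.07. The list's median was 0.05.

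None of the 14 tested regulators of the pathway was called. Nfe2l2, which encodes NRF2, had 163, 159 and 156 CPM in UVA-only libraries and 151, 148 and 154 CPM in co-treated libraries, at -0.08 ± 0.04 (adjusted p = 0.791). Keap1 was at 0.02 ± 0.06. Osgin1, an NRF2 target at low level, had 5.76, 7.04 and 8.76 CPM against 9.33, 7.82 and 9.45 CPM, at 0.30 ± 0.15 with overlap. Sqstm1, the autophagy receptor p62 that binds KEAP1, was at 0.11 ± 0.05 (adjusted p = 0.666). Their median was 0.02. NRF2 is controlled mainly through protein stability, which RNA levels do not show.

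The enzymes that remove superoxide and peroxides stood mostly below 0. Of 12 tested genes for superoxide dismutases, catalase and glutathione peroxidases, 9 were below 0 and none was called. The median was -0.07, and Sod1, the cytosolic dismutase, was at -0.13 ± 0.04 with overlap (adjusted p = 0.627). Of 4 tested genes of the aryl hydrocarbon receptor pathway, Ahr, the receptor, had 21.9, 16.9 and 24.4 CPM in UVA-only libraries and 27.1, 27.1 and 27.9 CPM in co-treated libraries, at 0.37 ± 0.10 (adjusted p = 0.351). Over 6 tested alpha-glucosidases, enzymes able to cleave alpha-linked glucose, log2 fold changes ran from -0.27 to 0.07 and none was called.

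**Figure D3:**
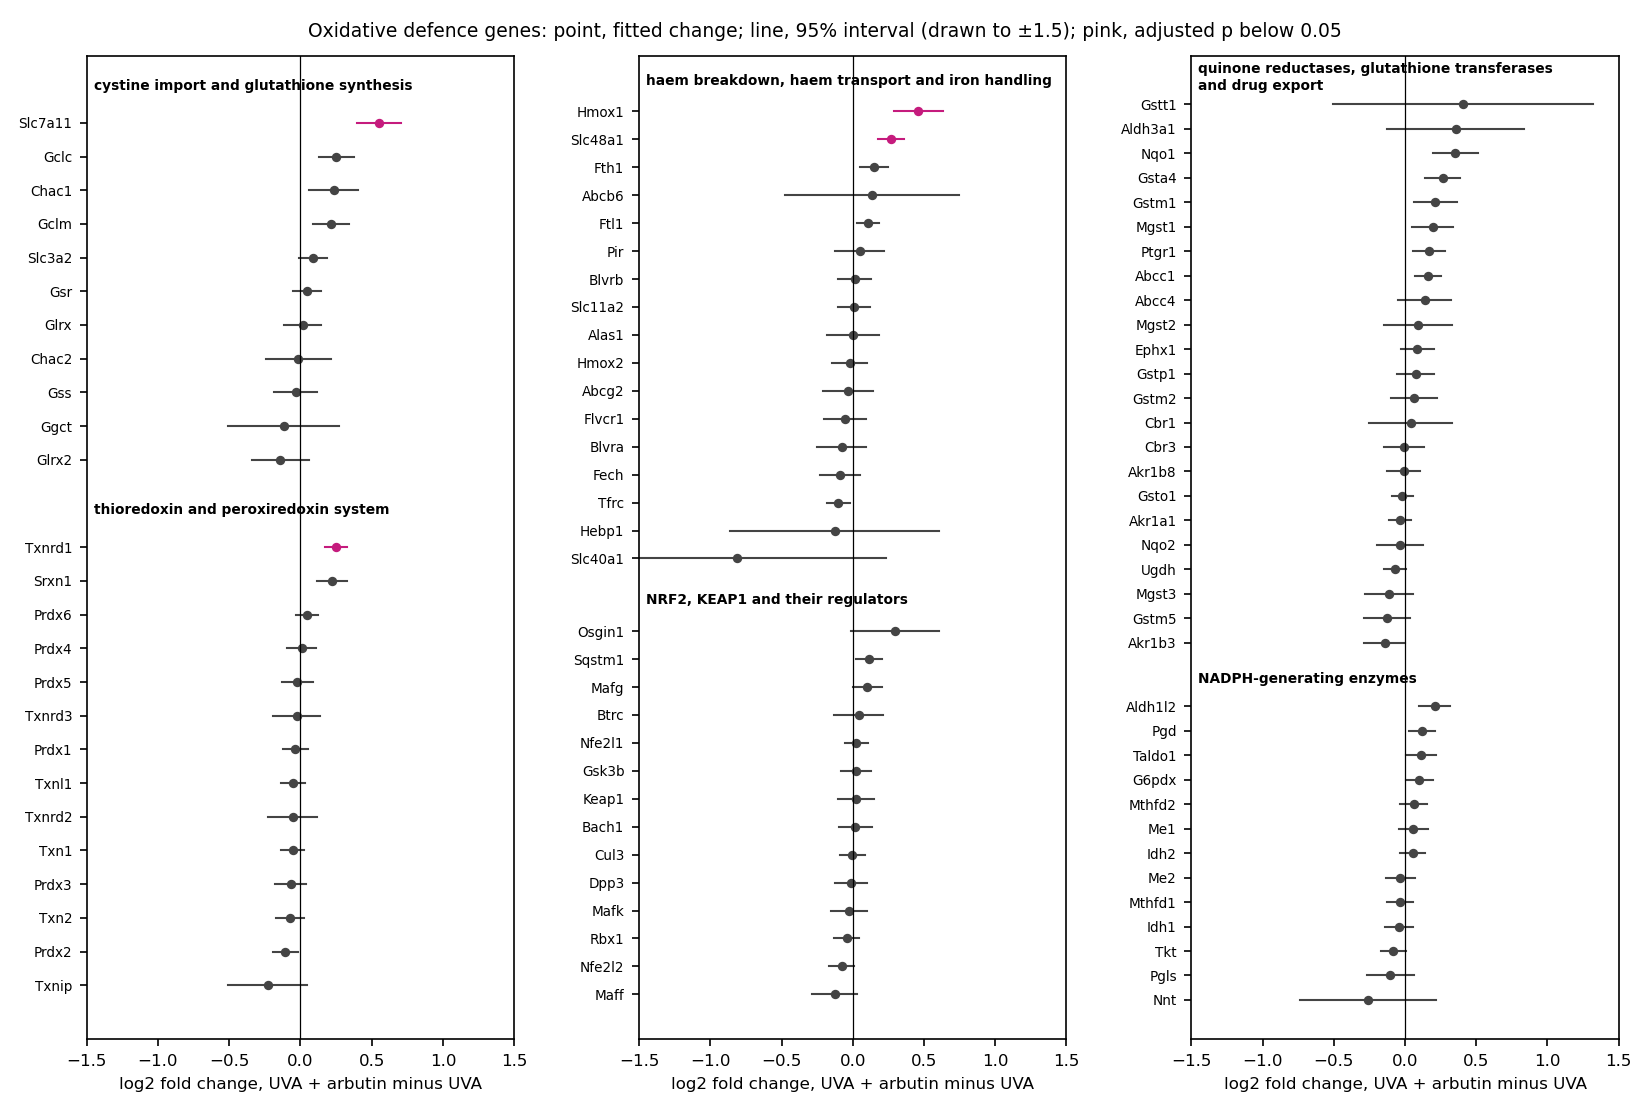
Fitted log2 fold change between co-treated and UVA-only libraries for every tested gene of 6 oxidant defence lists, with the 95% interval as a line drawn to at most 1.5 either way. The 4 called genes, in pink, are Slc7a11, Txnrd1, Hmox1 and Slc48a1, and Gclc, Nqo1, Gsta4 and Srxn1 have intervals above 0 without passing the adjusted threshold.

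The 12 genes with a symbol and the smallest p above 0 that were not called included 4 of these defence genes, Nqo1, Gsta4, Srxn1 and Gclc. Sqor, a mitochondrial enzyme of hydrogen sulphide oxidation, was at 0.27 ± 0.06 (adjusted p = 0.176). Esd, an esterase that completes glutathione-dependent removal of formaldehyde, had 437, 458 and 476 CPM in UVA-only libraries and 504, 527 and 531 CPM in co-treated libraries. Its groups did not overlap, at 0.19 ± 0.04 (adjusted p = 0.091), and it was called by DESeq2, by limma-voom after quantile normalization, with no filter on low counts, and without UVA-only replicate 3 or co-treated replicate 1. Trim16, an E3 ligase, had 56.5, 55.5 and 51.03 CPM against 62.5, 67.6 and 65.2 CPM (0.26 ± 0.06, adjusted p = 0.141). Speg, which encodes a muscle-type kinase, was at 0.42 ± 0.09 (adjusted p = 0.091), with 14.8, 15.1 and 15.7 CPM against 20.5, 20.5 and 20.2 CPM. The others were Stard9 at 0.29, Sned1 at 0.27, Ddx17, an RNA helicase gene, at 0.17 and Tcp11l1 at 0.44, each with an adjusted p near 0.14. With no filter on low counts, 11 of these 12 genes, all but Sqor, were called. In these 12 genes the UVA-only and co-treated groups did not overlap, as in 5.45% of all tested genes with co-treated libraries higher. The 12 were picked by small p from the same values, so this separation adds no support. Together with the 4 called genes these 12 make up 16 of the 17 genes above 0 at an adjusted p below 0.2 (0.12% of the genes tested).

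The 12 genes with the smallest p below 0 that were not called followed. Of all genes below 0, 3 had an adjusted p below 0.2 (0.0212%), Rn7sk and Tnfrsf12a among them. Tnfrsf12a, the receptor of the cytokine TWEAK, had 162, 162 and 169 CPM in UVA-only libraries and 139, 144 and 147 CPM in co-treated libraries, at -0.19 ± 0.04 (adjusted p = 0.141). Control libraries were lower still, at 105, 107 and 101 CPM. Acat2 and Acss2, which handle acetyl-CoA in the cytosol, were at -0.19 ± 0.05 (adjusted p = 0.222) and -0.33 ± 0.09 (adjusted p = 0.375). Adamts1, a matrix protease, was at -0.18 ± 0.05 (adjusted p = 0.4219). Sem1, Arf2, Nop10 and Rpl38 lay between -0.23 and -0.17, and Lars2 and Rn18s-rs5, whose groups overlapped, are described with ribosomal RNA below. Nalcn and Csf1r had the largest fold changes of the 12, at -2.16 ± 0.62 and -1.79 ± 0.53, from mean levels of 0.894 and 1.23 CPM in UVA-only cells, so few counts stand behind them.

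Collagen genes, named in the study's question, were not called in this comparison. Col1a1 (ENSMUSG00000001506), which encodes a chain of type I collagen, had 313, 317 and 249 CPM in UVA-only libraries and 343, 303 and 253 CPM in co-treated libraries. The groups overlapped fully, with a log2 fold change of 0.03 ± 0.07 (95% interval -0.12 to 0.18). Control libraries had 939, 968 and 965 CPM, far above both. Col1a2 was at 0.04 ± 0.07 (95% interval -0.09 to 0.18) and Col3a1, type III collagen, at -0.08 ± 0.05 (95% interval -0.19 to 0.03). All 17 tested collagen genes had a 95% interval within a 1.5-fold difference either way, with a median of 0.03, against a median of -0.80 for UVA-only minus control. Without co-treated replicate 1 the median was -0.03. The basement membrane gene Col4a1, on the minus strand, was at 0.09 ± 0.04, and its start overlaps that of Col4a2 on the plus strand.

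The other matrix lists gave the same picture. Of 24 tested genes for collagen processing none was called and 23 had intervals within 1.5-fold, with a median of 0.01. Of 13 matrix proteases and 7 protease inhibitors none was called, and all had intervals within 1.5-fold. Mmp3, stromelysin, had 7.09, 5.50 and 7.65 CPM against 6.65, 6.03 and 6.25 CPM (-0.11 ± 0.17), and Timp1, a protease inhibitor, was at -0.10 ± 0.08. Mmp13, collagenase 3, had 47 counts in all 9 libraries together and was not tested. Among 19 other matrix proteins none was called, and Nid1, a basement membrane glycoprotein, was at 0.12 ± 0.04 (adjusted p = 0.584) without overlap.

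DNA repair genes were likewise not called. Of 21 base excision repair genes, which mend oxidised bases, none had an unadjusted p below 0.05, and 18 had intervals within 1.5-fold. Ogg1, the glycosylase for oxidised guanine, had 16.9, 16.4 and 18.3 CPM in UVA-only libraries and 17.6, 17.3 and 19.2 CPM in co-treated libraries (0.07 ± 0.09, 95% interval -0.12 to 0.26). Of 26 genes of nucleotide excision repair and translesion synthesis, 25 had intervals within 1.5-fold. Xpc, the damage sensor, was at -0.03 ± 0.08 and Ercc1, part of the incision nuclease, at -0.10 ± 0.06. Ercc1 stood at 88.8, 89.0 and 109 CPM in UVA-only libraries and 87.7, 86.9 and 92.8 CPM in co-treated libraries, with control libraries at 51.4, 51.5 and 48.1 CPM. The smallest p in homologous recombination belonged to Brca2 (0.17 ± 0.06, adjusted p = 0.627), without overlap. None of 12 end joining genes and none of 19 damage checkpoint genes was called, with medians of 0.10 and -0.01.

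No p53 target was called. Cdkn1a, the cell cycle inhibitor p21, had 165, 170 and 214 CPM in UVA-only libraries and 158, 178 and 197 CPM in co-treated libraries, at -0.04 ± 0.07 (95% interval -0.19 to 0.10). Control libraries had 92.1, 96.1 and 90.3 CPM. Gadd45a, a stress gene of growth arrest, was at 0.15 ± 0.11 (95% interval -0.08 to 0.38), and Plk2, a p53-induced kinase, at 0.16 ± 0.05 (adjusted p = 0.626) without overlap. Of 24 tested p53 targets 22 had intervals within 1.5-fold, with a median of -0.01.

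Several other lists leaned to one side without a called member. Of 21 tested ATF4 targets (Slc7a11 is not counted among them), 20 were above 0 (7079 of all 14151 tested genes), with a median of 0.07. At an unadjusted p below 0.05, 6 were above 0 (3.64% of all tested genes) and 1 was below (3.12%). Chac1, Slc3a2 and Aldh1l2 of this list were also counted in the oxidant defence lists above. The same list had a median of -0.39 in UVA-only minus control, where 18 of its genes were called lower (2064 of all 14151 tested genes). The UVA-only libraries enter both comparisons. Chac1 had 22.6, 27.7 and 24.7 CPM in UVA-only libraries and 31.8, 29.0 and 27.4 CPM in co-treated libraries (0.23 ± 0.08, adjusted p = 0.627), and Slc7a1, an importer of basic amino acids, was at 0.12 ± 0.05. The one gene below 0 was Nupr1, a stress-induced regulator, at -0.17 ± 0.07. The co-treated values lay between those of UVA-only and control libraries for Aldh1l2, at 205, 185 and 171 CPM in UVA-only, 220, 226 and 202 CPM in co-treated and 336, 315 and 335 CPM in control libraries, with an overlap of co-treated and UVA-only libraries.

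Of 18 cholesterol synthesis genes, 17 were below 0 and 9 were below 0 at an unadjusted p below 0.05, against 3.12% of all tested genes. The median was -0.11 and no interval left the 1.5-fold range. Mvk, mevalonate kinase, had 41.1, 46.0 and 39.5 CPM in UVA-only libraries and 37.4, 34.8 and 34.8 CPM in co-treated libraries (-0.24 ± 0.07, adjusted p = 0.507). Mvd, Fdft1 and Cyp51, later enzymes of the pathway, were at -0.23 ± 0.07, -0.14 ± 0.05 and -0.12 ± 0.04. These genes are known to be co-regulated by SREBP2, so they are not independent of one another. Of 33 cytosolic ribosomal protein genes, 32 were below 0 (7072 of all 14151 tested genes), with a median of -0.06. At an unadjusted p below 0.05, 10 were below 0, against 3.12% of all tested genes. The ribosomal protein genes too are not treated as independent of one another. Rpl32 was at -0.11 ± 0.04 and Rps2 at -0.14 ± 0.05 (adjusted p 0.626 and 0.627).

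Of 15 tested heat shock genes 14 were below 0 (7072 of all 14151 tested genes), with a median of -0.05. Cryab, a small heat shock protein, had 124, 125 and 131 CPM in UVA-only libraries and 106, 121 and 110 CPM in co-treated libraries, at -0.17 ± 0.05 (adjusted p = 0.507) without overlap, with control libraries at 77.4, 74.4 and 79.4 CPM. Hspe1, a mitochondrial chaperonin, was at -0.11 ± 0.04. Of 23 immediate early genes 17 were below 0. Klf2, a transcription factor, had 6.92, 5.13 and 13.3 CPM in UVA-only libraries and 3.60, 4.64 and 6.69 CPM in co-treated libraries, a wide and overlapping spread (-0.77 ± 0.25, adjusted p = 0.626). Dusp1, a MAP kinase phosphatase, was at -0.21 ± 0.08 (adjusted p = 0.634). Ldha, lactate dehydrogenase, was at -0.10 ± 0.03 (adjusted p = 0.626). None of these lists held a called gene, though Klf2 was called lower when no filter on low counts was applied (adjusted p = 0.00407).

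**Figure D4:**
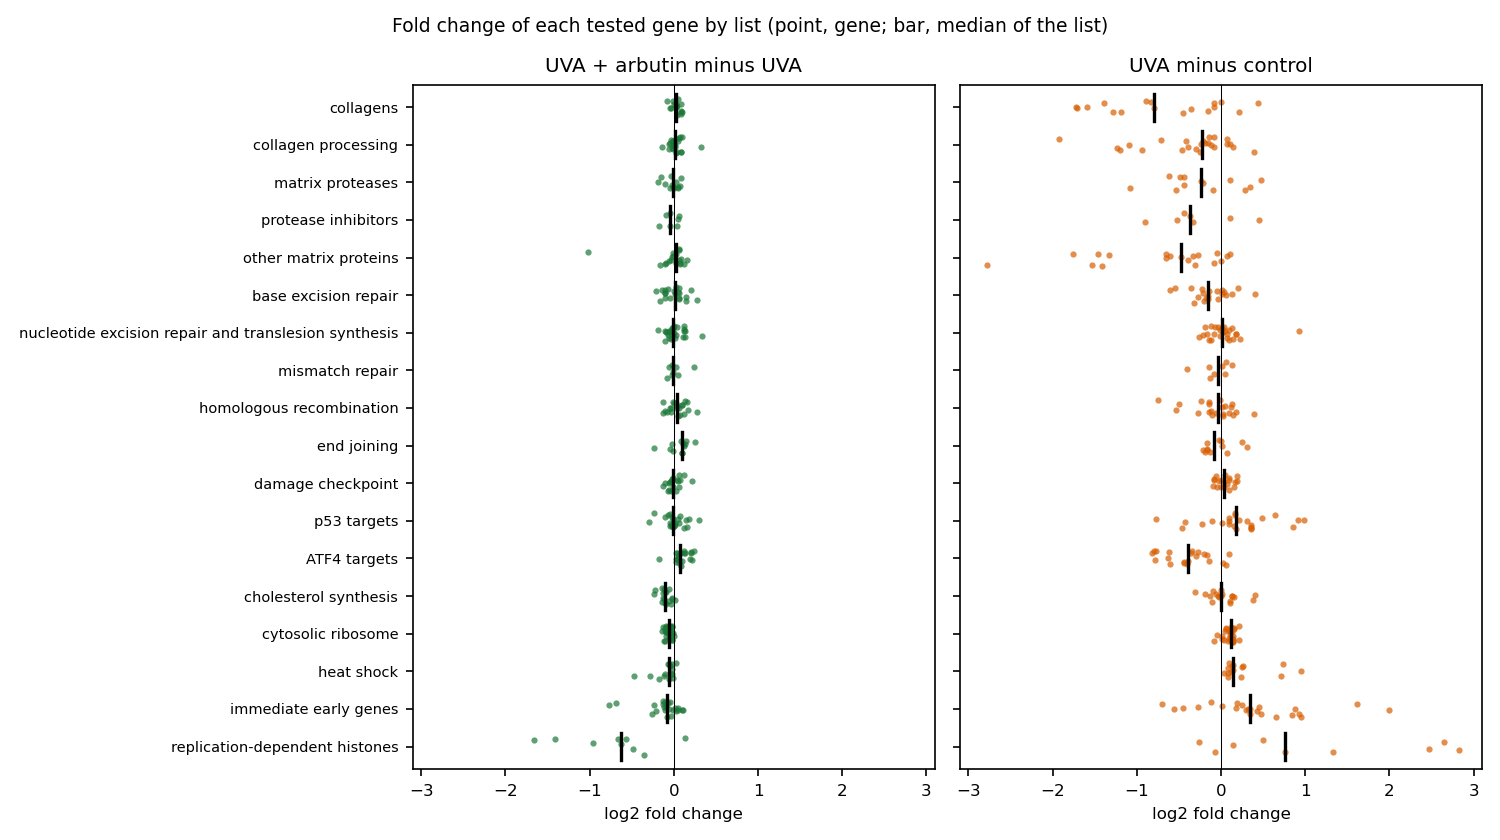
Log2 fold change of every tested gene in 18 lists, for co-treated minus UVA-only on the left and UVA-only minus control on the right, with the same axis. Points are genes and bars are list medians. Collagens lie at a median of 0.03 on the left and -0.80 on the right, and the histone genes at -0.63 and 0.76. The UVA-only libraries enter both panels.

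Rn7sk belongs to the transcripts that carry no poly(A) tail, and the other transcripts of this kind mostly had values below 0 in the comparison, though none of them was called. The sources used here do not say how RNA was enriched before library construction, and a change in how much RNA without a tail entered the libraries would move these genes together. Its part in the result was not tested. Of 21 small RNA genes listed, 2 had enough counts to test. The other one, Rpph1, the RNA of RNase P, had 20, 30 and 13 counts in UVA-only libraries and 11, 8 and 10 in co-treated libraries (-1.06 ± 0.46, adjusted p = 0.699). Summed over all 21 genes, UVA-only libraries had 11.3 to 11.9 CPM and co-treated libraries 6.03 to 6.16 CPM, most of it Rn7sk.

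Replication-dependent histone genes, whose mRNAs end in a stem-loop in place of a tail, summed to 19.5, 18.9 and 21.2 CPM in UVA-only libraries and 12.9, 12.6 and 15.1 CPM in co-treated libraries over 25 genes. The groups did not overlap, and control libraries were lower again at 10.7, 11.3 and 11.7 CPM. None of the 9 tested histone genes was called, and the median was -0.63. At an unadjusted p below 0.05, 5 were below 0, against 3.12% of all tested genes. H2bc4 had 3.76, 3.09 and 3.65 CPM in UVA-only libraries and 1.71, 1.91 and 2.99 CPM in co-treated libraries (-0.66 ± 0.26, adjusted p = 0.666). H4c9, H3c4 and H4c8 were at -0.96 ± 0.38, -1.41 ± 0.57 and -1.66 ± 0.71 from few counts. Over the alternatives the median ran from -0.94, without co-treated replicate 3, to -0.26, with limma on log2(FPKM + 1).

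Rn18s-rs5, annotated as a relative of the 18S ribosomal RNA gene, took 9161, 10135 and 7700 CPM in UVA-only libraries and 7879, 7536 and 5768 CPM in co-treated libraries, an overlap at the third UVA-only library (-0.35 ± 0.09, adjusted p = 0.222). It was called lower with all libraries when no filter on low counts was applied (adjusted p = 3.52e-32), and without UVA-only replicate 3 (adjusted p = 0.00594). Lars2, annotated as the mitochondrial leucyl-tRNA synthetase, was at -0.26 ± 0.07 (adjusted p = 0.351), with overlap: 823, 956 and 738 CPM against 720, 744 and 633 CPM. Its highest and lowest UVA-only and control libraries were those of Rn18s-rs5, while the order of the co-treated libraries differed. Control libraries had 833, 772 and 973 CPM of Lars2 and 9521, 8194 and 10923 CPM of Rn18s-rs5. Which sequence the Lars2 counts come from was not tested. Ribosomal RNA left in a library depends on depletion or selection, so values for Rn18s-rs5 are not a measure of ribosomes in the cell.

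**Figure D5:**
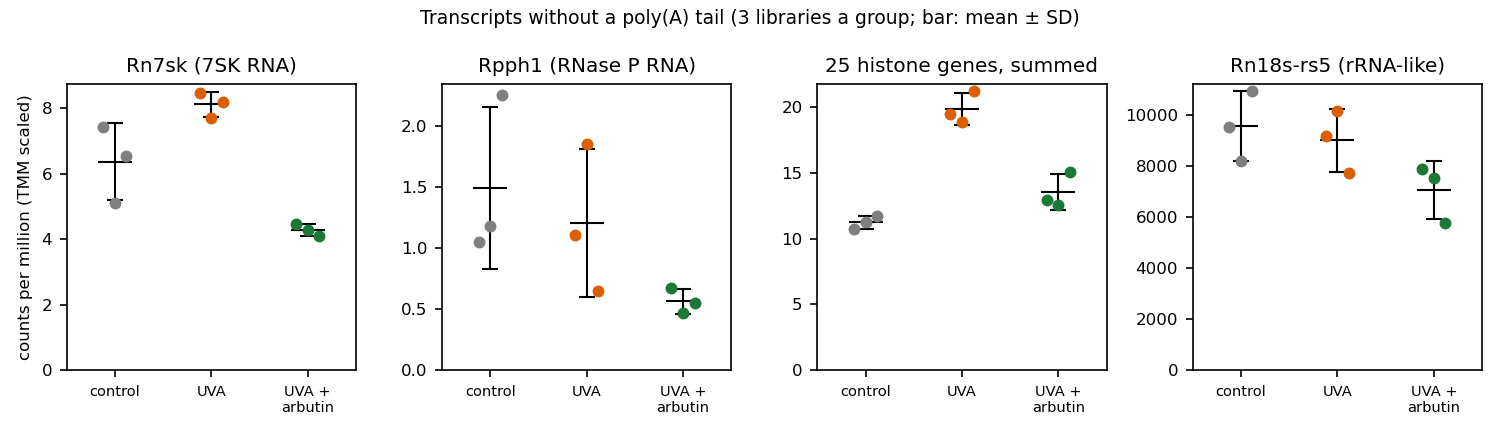
Levels in CPM, on axes that start at 0, of 7SK RNA (Rn7sk), RNase P RNA (Rpph1), the sum of 25 replication-dependent histone genes and Rn18s-rs5. Points are libraries and bars the mean and SD of 3. The co-treated histone sum lies at 12.6 to 15.1 CPM, below the UVA-only range of 18.9 to 21.2 CPM, while Rn18s-rs5 and Rpph1 overlap between these groups.

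Depth was similar in the libraries compared, while some measures of composition did not overlap between the UVA-only and co-treated groups. Total counts, in units of 1e6, ran from 16.3 to 20.9 over the 9 libraries, TMM factors from 0.992 to 1.007, the share of mitochondrially encoded counts from 3.52% to 4.01%, and the share of the 10 most abundant genes from 6.37% to 6.86%. Fibroblast markers summed to 6807 to 7074 CPM in UVA-only and 6509 to 6757 CPM in co-treated libraries, ranges that do not overlap. The part of this difference in the results was not tested. Markers of other cell types were low in both groups: epithelial markers 1.75 to 4.59 against 1.97 to 2.93 CPM, endothelial 5.13 to 7.15 against 5.12 to 7.41 CPM, immune 6.53 to 10.9 against 7.87 to 8.63 CPM, muscle 1.66 to 3.20 against 1.95 to 3.24 CPM, adipocyte 14.2 to 17.3 against 15.9 to 19.01 CPM, and pigment cell, the one list of these without overlap, 5.68 to 6.10 against 6.14 to 6.35 CPM. Of 10 pigment cell genes only Mitf had enough counts to test, and Lpl made up most of the adipocyte sum. Epcam, Krt5, Cd3e, Myod1, Actc1, Dct, Oca2, Slc45a2 and Sox10 had no count in any library. No pair of libraries of a group differed by as little as counting noise.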

How the data were processed

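RNA of NIH/3T3 cells was sequenced in 9 libraries, 3 a group. The authors deposited one table with 56691 Ensembl genes, which holds, per the file headers, raw counts and FPKM of every library. The deposited FPKM equals the count divided by exonic length and library total for 510219 of 510219 values within 0.01. The submitters' processing notes list HISAT2 2.2.1, HTSeq 0.6.1, cutadapt 1.9.1 and the build mm39 without roles. The strand setting and the treatment of multiply mapped reads are not stated in these sources. Columns with the prefix NC were taken as control by elimination, since every other prefix matches another title. Genes without a symbol (2639) held at most 0.118% of counts.

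Counts were tested with edgeR 4.0.16 in R 4.3.3 (filterByExpr, TMM, quasi-likelihood F-test, two-sided, all 9 libraries, group only, contrast co-treated minus UVA-only), and p-values were adjusted by Benjamini-Hochberg over 14151 genes. The script was tested on simulated data. SEs combine the fit's weights with the gene's quasi-likelihood dispersion. Limma 3.58.1 on log2(FPKM + 1) and log2(FPKM + 0.1), and DESeq2 1.42.0, were alternatives. Genes named are the called genes, the 12 with the smallest p in each direction among the others, members of the 6 oxidant defence lists, up to 4 members of each other list with the smallest p, and 11 genes of matrix, repair and p53. Not all are described. The members and the 50 lists were chosen with earlier results of these data known, and the lists carry no test of their own. Gene coordinates are on mm39, and promoter windows, from RefSeq, are on GRCm38.p6 and were not converted.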

Additional observations from a re-analysis of the deposited data

How the results depend on the processing

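The count of called genes, 4 higher and 1 lower, was the same with only the 6 UVA-only and co-treated libraries, with RLE size factors and with a mean CPM of at least 1, and 5 or 6 higher and 1 lower with quantile normalization in limma-voom or DESeq2. Without a filter on low counts it was 20 higher and 9 lower, in the edgeR fit that gave Rn18s-rs5 an adjusted p of 3.52e-32 despite overlapping groups. With limma on log2(FPKM + 1) and on log2(FPKM + 0.1) it was 0 higher and 0 lower, with 935 and 941 genes at an unadjusted p below 0.05. With a replicate block it was 16 higher and 3 lower, the 5 genes above included. The block brought in Nqo1, Srxn1, Gsta4, Gclc and Aldh1l2 of the oxidant defence (adjusted p 0.012, 0.0315, 0.0368, 0.0375 and 0.0368). It also brought in Esd, Speg, Ddx17, Stard9, Sned1, Trim16 and Prl2c2 as higher and Rn18s-rs5 and Tnfrsf12a as lower. Same-numbered UVA-only and co-treated libraries correlated at 0.210, 0.0955 and 0.205 in their deviations over 9119 genes, each library best with its own number, a hint from the data and not from the labels, which do not state a pairing. Leaving out 1 library gave 1 to 14 higher and 0 to 8 lower calls. The cause of these shifts was not tested. Fold changes near 0 changed sign when 1 library was left out: Prdx1 ran from -0.088 to 0.016, Keap1 from -0.019 to 0.056, Col1a1 from -0.075 to 0.14, Col1a2 from -0.063 to 0.12, Ercc1 from -0.16 to 0.0044 and Cdkn1a from -0.12 to 0.089. The called genes kept their sign in all 15 alternatives. Of 750 list medians recomputed, 740 moved by less than the spread and 10 by more, 5 of these for the 4 aryl hydrocarbon receptor genes. Genes below about 1 CPM rest on few counts, and whether differences under 1.5-fold in them could be detected at this depth was not tested.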

Other observations

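Lists not described above held no called gene between co-treated and UVA-only cells, and no gene named here had an adjusted p below 0.05 in the fit described. Of these genes Ccn2 was called lower without UVA-only replicate 3 (adjusted p = 0.0182). Among YAP targets (13 tested, median -0.00), F3, tissue factor, had 12.2, 12.2 and 13.4 CPM in UVA-only libraries and 18.3, 15.2 and 14.6 CPM in co-treated libraries, without overlap (log2 fold change 0.34 ± 0.11, edgeR adjusted p = 0.626). Control libraries stood at 26.1, 34.7 and 32.5 CPM. Ccn2, another target of YAP, lay the other way at -0.22 ± 0.08 with overlap. Acta2, smooth muscle actin and a marker of activated fibroblasts, was at -0.34 ± 0.15 with overlap, at 6.92, 6.12 and 5.35 CPM against 4.27, 6.03 and 4.15 CPM, where control libraries had 35.3, 31.5 and 32.1 CPM.

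Of 18 genes for ER chaperones and the unfolded protein response, 15 were above 0 (7079 of all 14151 tested genes), with a median of 0.04. Pdia4, a disulphide isomerase, was at 0.14 ± 0.05 with overlap. Of 24 DNA replication genes 21 were below 0 (7072 of all 14151 tested genes), with a median of -0.04. All 24 intervals lay within 1.5-fold, as did those of 20 mitosis genes. Among the mitosis genes Cenpf, a kinetochore protein, was at 0.14 ± 0.04 without overlap. Apoptosis genes (18 tested) had a median of -0.06, inflammatory genes (18) of -0.01 and autophagy genes (24) of 0.00. Tgfb3, a TGF-beta ligand, was at 0.19 ± 0.08 with overlap. The clock gene Arntl was at 0.20 ± 0.08 and the nuclear RNA Neat1 at 0.13 ± 0.05, both without overlap.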
